A study of Mus musculus with 50 samples.

Results

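Runx1-high and Runx1-low iHECs were compared within a single group of 50 mouse cells, each sequenced alone. The cells were assigned by the Runx1 transcript level in TPM (a gene's share of the transcripts of a cell, scaled for gene length, on a fixed total per cell), so the 2 groups were defined by a measured value and not by a treatment. A cell was called Runx1-high above 100 TPM and Runx1-low at or below 10 TPM. This rule gave 27 Runx1-high cells and 10 Runx1-low cells, 37 of the 50 cells, and left 13 cells between the limits, which are shown where they help but did not enter any difference. All 50 cells shared 1 genotype and 1 treatment. They came from C57BL/6 mouse embryonic stem cells with an rtTA-TRE-Runx1-HygroR cassette in the Rosa26 locus. In it, rtTA switches on a TRE-driven Runx1 when doxycycline is present, and hygromycin resistance serves for the selection of clones. Doxycycline was added at day 6 of the culture, and iHECs (induced hemogenic endothelial cells) were described as sorted at day 11 as CD31+CD41lowCD45-c-kit+CD201high. Runx1-low cells therefore carried the same cassette and had received the same drug as Runx1-high cells. The labels name no separate cultures, so the 50 cells are 1 sample without a replicate, and no p-value or standard error was computed.

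Runx1 is the DNA-binding subunit of core binding factor, and Cbfb is the partner that stabilises it on DNA. In the embryo it is required for the endothelial-to-hematopoietic transition, in which hemogenic endothelial cells lining the arteries lose endothelial features and bud off as blood cells. Targets described in blood cells include the repressor Gfi1, the myeloid and lymphoid regulator Sfpi1 (PU.1, now Spi1) and the integrin gene Itga2b (CD41).

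Runx1 (GRCm38 chromosome 16, 92601466 to 92826149, minus strand) lay between 106.2 and 912.9 TPM in the Runx1-high cells, with a median of 294.2 TPM. In the Runx1-low cells it lay between 0.163 and 6.64 TPM, with a median of 0.839 TPM. These values chose the cells and are no finding. Just inside and outside the limits, the highest Runx1-low cell had 6.64 TPM and the next cell 11.2 TPM, while the lowest Runx1-high cell had 106.2 TPM and the cell below it 93.95 TPM. Values per gene cannot tell cassette-derived Runx1 transcripts apart from endogenous ones. The number of genes above TPM 1 had a median of 6390 in the Runx1-high cells (4445 to 8615) and of 5433.5 in the Runx1-low cells (2400 to 7567). The Runx1-low cells thus had fewer genes measured, and this number moved with the grouping.

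**Figure D1:**
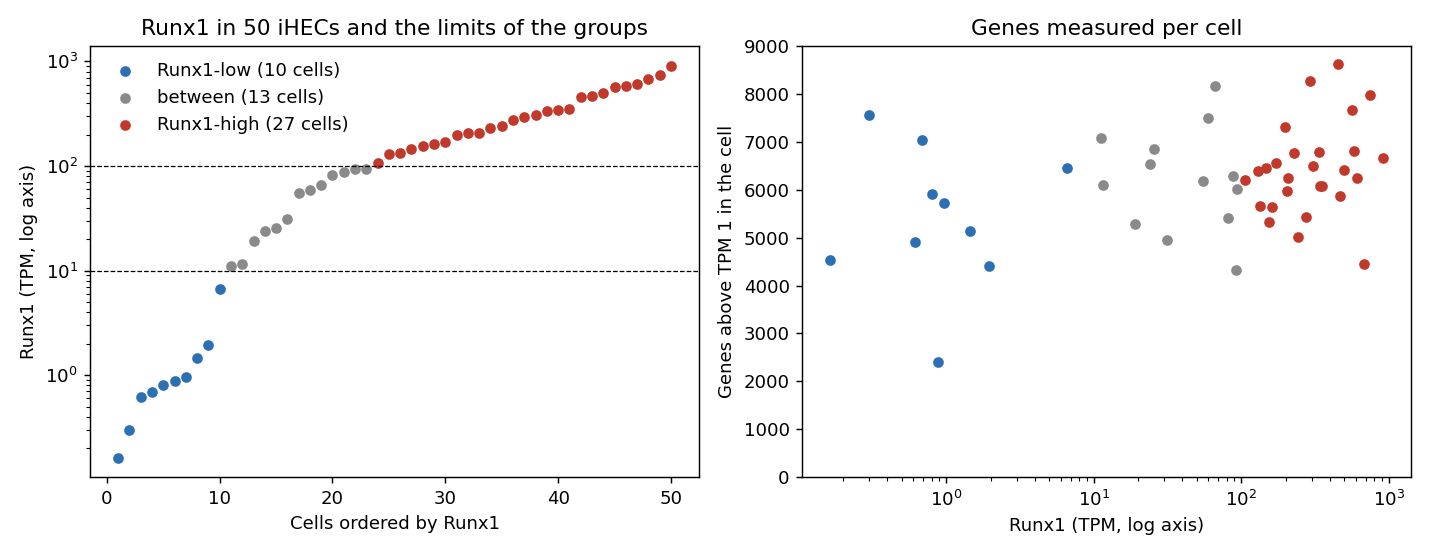
Left, Runx1 in TPM on a log axis for each of the 50 cells in rising order, with dashed lines at the limits of 10 and 100 TPM; right, the number of genes above TPM 1 against Runx1 in TPM on a log axis. Points are single cells, and 1 Runx1-low cell with 2400 genes lies apart from the others.

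Both groups were present under each of the 4 first numbers in the cell titles, whose meaning the labels do not give. Under number 1 there were 7 Runx1-high and 2 Runx1-low cells, under number 2 there were 6 and 3, under number 3 there were 9 and 2, and under number 4 there were 5 and 3. One Runx1-low cell stood apart from the rest. Cell 4-6 (cells are named by the 2 numbers of their titles) had 2400 genes above TPM 1, while all other Runx1-low cells had 4402 or more. This cell had 3.3 TPM of Esam and 50.9 TPM of Pecam1, the lowest values of the 10 Runx1-low cells for both genes, and 3843 TPM of Sfpi1, the highest of all. The counts of genes by 2 or more, the list medians and the differences of the named genes were repeated without it.

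The sorted phenotype was checked first. Pecam1 (CD31) lay between 80.6 and 1150.0 TPM in the Runx1-high cells and between 50.9 and 1319 TPM in the Runx1-low cells, so the groups overlapped over nearly their whole range. Procr (CD201) was above TPM 1 in 27 of 27 and 10 of 10 cells, at medians of 266 and 316 TPM. In every cell of both groups 0 TPM was listed for Ptprc (CD45), the antigen the sort had to be negative for. Kit was above TPM 1 in 26 Runx1-high cells at a median of 49.6 TPM and in 8 Runx1-low cells at a median of 15.7 TPM. Itga2b (CD41) was above TPM 1 in 21 and 8 cells, at medians of 66.4 and 27.4 TPM. Endothelial identity was shared as well. Cdh5 (VE-cadherin) was above TPM 1 in every cell, at a median of 107 TPM in the Runx1-high and 180 TPM in the Runx1-low cells, and a median of 30 of 33 endothelial genes was above TPM 1 per Runx1-high cell against 30.5 per Runx1-low cell. Leukocyte rows had median sums of 2989 TPM in the Runx1-high and 2477 TPM in the Runx1-low cells, and megakaryocyte rows of 816 and 490 TPM. Mesenchymal, erythroid and pluripotency markers were scarce in most cells of both groups. The median summed level over 7 mesenchymal rows was 0 TPM in both groups, with highest values of 14.6 TPM in Runx1-high and 8.29 TPM in Runx1-low cells. The 9 erythroid rows had a median sum of 0 TPM in both groups, and reached 84.3 TPM in 1 Runx1-high and 1348 TPM in 1 Runx1-low cell. The 1 pluripotency row of the table stayed at or below 10.5 TPM.

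Differences were described for the 9103 genes above TPM 1 in at least 10 of the 50 cells, Runx1 left out. For each gene the adjusted difference is the mean log2(TPM + 1) of the Runx1-high cells minus that of the Runx1-low cells at an equal number of genes above TPM 1, from a least-squares fit. An adjusted difference of 2 or more in size was found for 341 genes (3.75% of the genes fitted), 196 of them higher and 145 lower in Runx1-high cells. At a size of 1 or more there were 1177 genes higher (12.9%) and 1017 lower (11.2%). The number of genes per cell weighed on these counts. Without it the median difference over all genes moved from 0.07 to 0.52, and 424 genes were higher and 40 lower by 2 or more. The share of genes with a positive difference was 53.7% with the number of genes in the fit and 74.1% without it. The same sign overall and under all 4 first title numbers was found for 1492 genes (16.4%), among them 142 of the 196 higher and 51 of the 145 lower genes. No gene separated the groups fully. Of the 9103 genes, 0 had ranges that did not overlap between the 27 and the 10 cells.

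**Figure D2:**
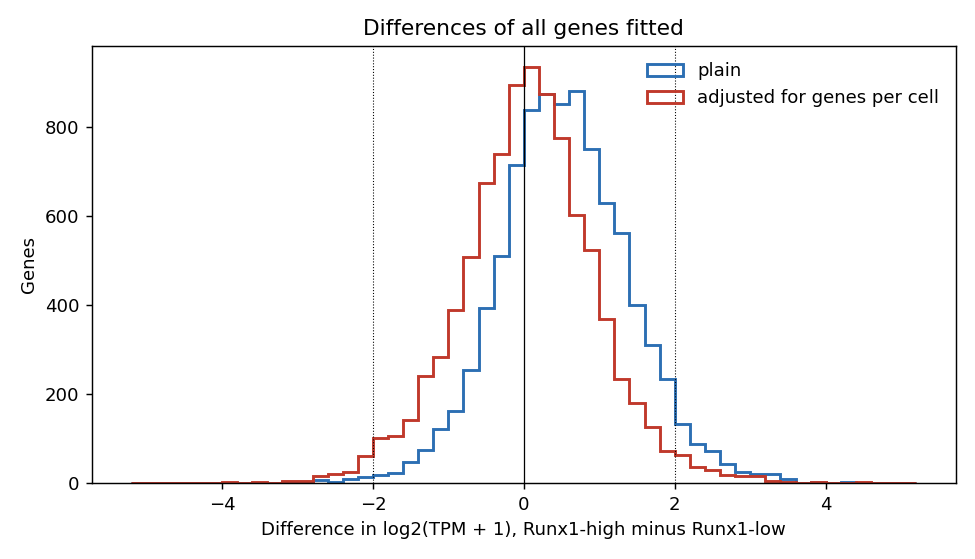
Histograms of the difference in log2(TPM + 1), Runx1-high minus Runx1-low, over the 9103 genes fitted, as plain differences of means (blue) and adjusted for the number of genes per cell (red); the y axis counts genes, and dotted lines mark 2 in either direction. The plain histogram is shifted to the right, with a median of 0.52 against 0.07.

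The genes named below are the 12 with the largest adjusted difference in each direction among those with the same sign under all 4 title numbers. They were picked from the same cells in which they are described, so their differences carry no test. In all 24 the ranges of the groups overlapped. The plots of named genes by group show each cell.

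Of the 12 higher genes, Alox5 and Ltc4s (ranks 1 and 4) act in leukotriene synthesis. Alox5 (GRCm38 chromosome 6, 116410077 to 116461178), the lipoxygenase that starts leukotriene synthesis, lay between 0.446 and 1066 TPM in the Runx1-high cells with a median of 88.9 TPM. In the Runx1-low cells it lay between 0 and 129 TPM with a median of 0.31 TPM. It was above TPM 1 in 24 of 27 Runx1-high cells (88.9%, exact 95% interval 70.8% to 97.6%) and in 3 of 10 Runx1-low cells (30%, 6.67% to 65.2%), and these intervals, like all below, cover counting error only. The mean log2(TPM + 1) was 6.11 ± 2.45 (SD over cells, n = 27) against 1.3 ± 2.2 (n = 10), with an adjusted difference of 4.76. A single Runx1-low cell, 1-4, held the 129 TPM, and the next had 7.16 TPM. Ltc4s (chromosome 11, 50236461 to 50238616), the synthase that conjugates leukotriene A4 with glutathione, had a median of 148 TPM (0 to 784) in the Runx1-high cells and of 8.29 TPM (0 to 270) in the Runx1-low cells. It was above TPM 1 in 26 of 27 and 5 of 10 cells, and its adjusted difference was 4.18. The activating protein Alox5ap, which presents arachidonic acid to Alox5, was not among the 12, and under 1 title number its difference had the opposite sign. Its median was 295 TPM in the Runx1-high and 14.0 TPM in the Runx1-low cells, with an adjusted difference of 3.19. Alox5, Alox5ap and Ltc4s were above TPM 1 together in 22 of 27 Runx1-high cells (81.5%), in 6 of 13 cells between the limits (46.2%) and in 2 of 10 Runx1-low cells (20%). The 3 genes were noted for their level in these cells, so the joint counts largely restate the share of each gene. Whether they occurred together more often than those shares give was not tested.

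A list of 15 eicosanoid synthesis genes was drawn up after these values were seen. Of its 10 fitted members all had a positive adjusted difference, with a median of 1.1, and 4 reached 2 or more. Of all genes fitted 53.7% were positive and 196 of 9103 were higher by 2 or more, and since the list followed from the values, its counts partly restate that choice. The 5 other listed genes did not pass the filter, which a gene can pass through the Runx1-high cells alone, so the counts describe the members that passed. The fourth besides the 3 genes above was Ptgs1 (cyclooxygenase 1), which was above TPM 1 in 25 Runx1-high cells at a median of 76.9 TPM and in 4 Runx1-low cells at a median of 0.643 TPM, with an adjusted difference of 3.1. Pla2g4a, the phospholipase that releases arachidonic acid, was above TPM 1 in 13 Runx1-high cells and in 0 Runx1-low cells, where its highest value was 0.165 TPM. In contrast, Lta4h, which hydrolyses leukotriene A4 to the B4 form, was above TPM 1 in 26 and 10 cells, with medians of 248 and 156 TPM and an adjusted difference of 0.07. The inducible cyclooxygenase Ptgs2 and the thromboxane synthase Tbxas1 were listed at 0 in every Runx1-high and Runx1-low cell.

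Fcgr3 and Ctse were also among the 12 higher genes. Fcgr3 (chromosome 1, 171051174 to 171064935), a low-affinity receptor for the constant part of IgG, had a median of 95.8 TPM (0 to 649) in the Runx1-high cells and of 0.257 TPM (0 to 27.4) in the Runx1-low cells. It was above TPM 1 in 22 of 27 cells (81.5%, 61.9% to 93.7%) against 1 of 10 (10%, 0.253% to 44.5%), with an adjusted difference of 4.42. Among related Fc gamma receptor genes, Fcgr1 and Fcgr4 were listed at 0 in both groups and Fcgr2b was above TPM 1 in 1 and 2 cells, and the sharing of reads between these genes was not tested. A list of 7 genes, 6 of Fc receptors and their chains together with Lilrb4, which is no Fc receptor, was drawn up after values were seen. Over the 4 members that passed the filter the median adjusted difference was 2.66. The 2 members that reached 2 or more (196 of 9103 of all genes fitted) were Fcgr3 and Lilrb4. Median and count thus partly restate the choice of these genes. The signalling chain Fcer1g had an adjusted difference of 1.33, and the lowest member 0.11. For the list, the median of plain differences was 0.33 under title number 1 and between 2.3 and 3.37 under the others. Ctse (chromosome 1, 131638306 to 131675505), which encodes the aspartic protease cathepsin E, was above TPM 1 in 17 Runx1-high cells and in 1 Runx1-low cell, where it reached 414 TPM. Its adjusted difference was 3.83, and 6 cells of each group were listed at 0. Lilrb4 (now Lilrb4a), an inhibitory receptor of myeloid cells, showed an adjusted difference of 3.99 and medians of 103 and 2.3 TPM, but the opposite sign under 1 title number. Slfn2, a schlafen gene linked to the quiescence of lymphocytes and monocytes, had medians of 129 and 16.9 TPM and an adjusted difference of 3.3. Members of the schlafen family lie close together in the genome and resemble each other, so part of its value may come from them.

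Lmo2 (chromosome 2, 103957986 to 103981878), the LIM-only protein that bridges Tal1 and Gata factors in blood progenitors, was the only blood transcription regulator among the 12. It lay between 0 and 283 TPM in the Runx1-high cells with a median of 70.9 TPM, and between 0 and 26.5 TPM in the Runx1-low cells with a median of 0.283 TPM. It was above TPM 1 in 22 of 27 cells against 2 of 10 (20%, 2.52% to 55.6%), with an adjusted difference of 3.71. Neurl3, a ubiquitin ligase gene, was above TPM 1 in 25 and 5 cells, at medians of 172 and 0.972 TPM, with an adjusted difference of 3.38. Trf (transferrin, the iron carrier of plasma) was above TPM 1 in 23 and 5 cells, at medians of 265 and 1.04 TPM, with an adjusted difference of 4.47. Slc2a3 (GLUT3, a glucose transporter) differed from the others in that no cell lacked it. Its lowest value was 144 TPM in the Runx1-high cells and 1.95 TPM in the Runx1-low cells, where 6 of 10 cells lay below 144 TPM and 4 between 510 and 840 TPM. The other 3 were Smtnl2 (a smoothelin-like gene; adjusted difference 3.38), Timm10 (a chaperone of mitochondrial protein import; 3.26) and Ctgf (now Ccn2, a secreted matrix-associated protein; 3.59). Ctgf was highest in the cells between the limits, at a median of 97.4 TPM against 9.88 TPM in the Runx1-high and 0.0975 TPM in the Runx1-low cells.

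**Figure D3:**
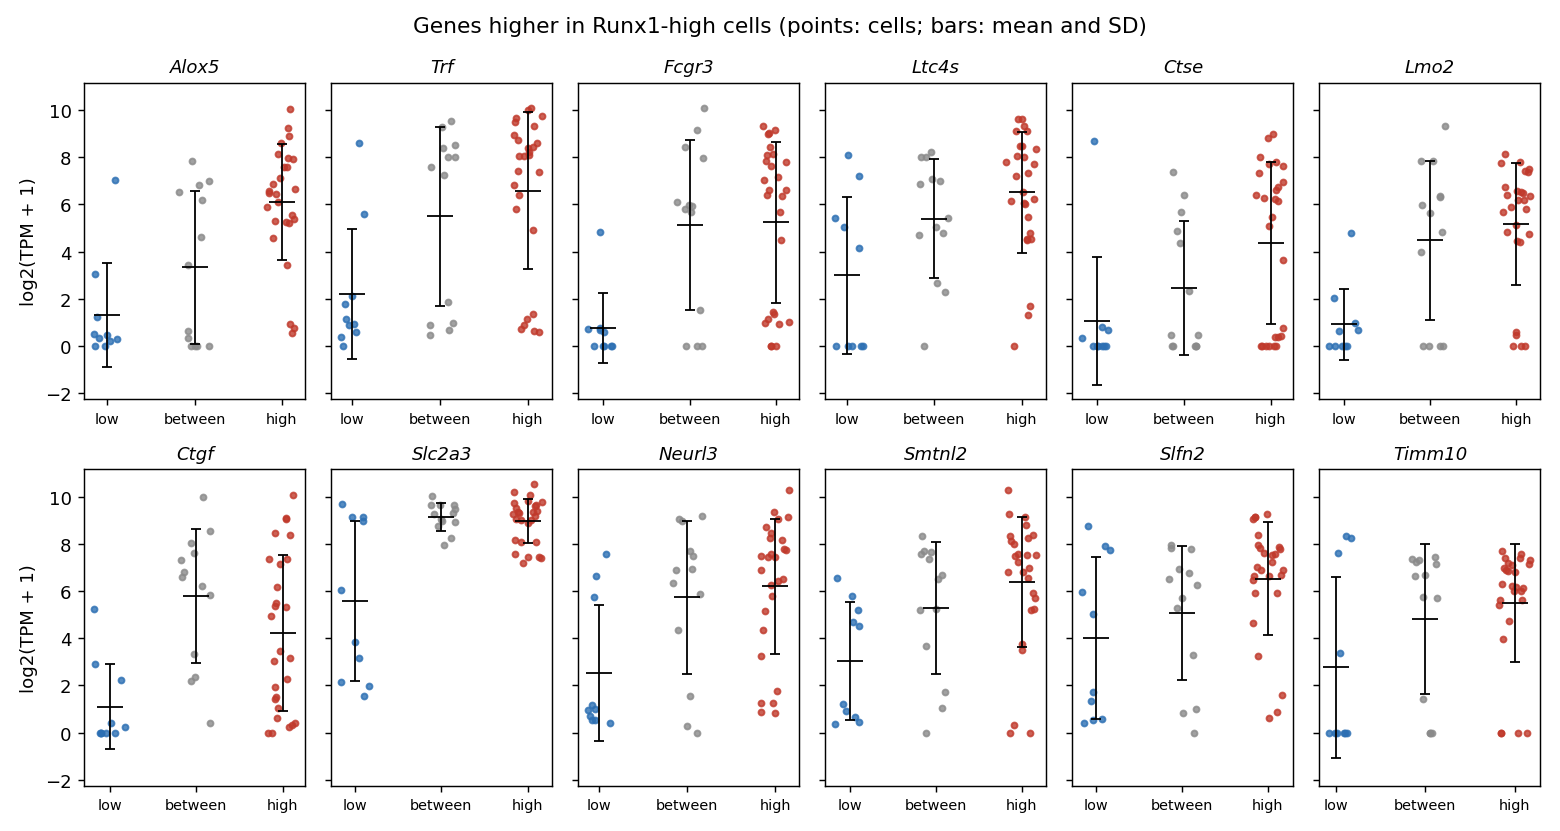
log2(TPM + 1) of the 12 genes with the largest positive adjusted difference, for Runx1-low (n = 10), between (n = 13) and Runx1-high (n = 27) cells; points are cells and bars the mean and SD. The groups overlap in each panel, and for Slc2a3 all Runx1-high cells lie at 144 TPM or more, together with 4 of the 10 Runx1-low cells.

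Fabp5 and Ppap2b had the largest negative adjusted differences. Fabp5 (chromosome 3, 10012548 to 10016607), a fatty acid-binding protein, was above TPM 1 in 10 of 10 Runx1-low cells, between 3.08 and 5761 TPM with a median of 245 TPM. In the Runx1-high cells it was above TPM 1 in 17 of 27 (63.0%, 42.4% to 80.6%), between 0 and 631 TPM with a median of 3.48 TPM. The adjusted difference was -5.05, the largest of all genes fitted, and processed copies of Fabp5 in the genome could take or give reads. Ppap2b (now Plpp3; chromosome 4, 105157347 to 105232764), a lipid phosphate phosphatase of the cell surface, was above TPM 1 in 8 of 10 Runx1-low cells at a median of 57.2 TPM. It was above TPM 1 in 6 of 27 Runx1-high cells (22.2%, 8.62% to 42.3%), none of them above 24.2 TPM, and its adjusted difference was -4.90. Most Runx1-high cells, 17 of 27, were listed at 0 for this gene, and 1 of the 10 Runx1-low cells was.

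Nostrin, which binds and traffics endothelial nitric oxide synthase, was above TPM 1 in 4 of 27 Runx1-high cells, up to 29.6 TPM, and in 5 of 10 Runx1-low cells, up to 575 TPM, with an adjusted difference of -3.93. Ednrb (chromosome 14, 103814625 to 103844402), the type B endothelin receptor, had a median of 29.1 TPM (0.152 to 456) in the Runx1-high and of 350.0 TPM (0.816 to 889) in the Runx1-low cells, with an adjusted difference of -3.80. In the cells between the limits its median was 137 TPM, and all 13 were above TPM 1. Tinagl1, a matricellular protein, was above TPM 1 in 6 of 27 and 6 of 10 cells, with highest values of 67.1 and 816 TPM and an adjusted difference of -4.04. Igfbp7, a secreted protein abundant in vessels, was above TPM 1 in 4 and 5 cells. In 4 of these 5 Runx1-low cells it stood at 594 TPM or more, while the highest Runx1-high cell had 180.0 TPM. Its adjusted difference was -3.64, and under the title numbers its plain difference ran from -5.38 to -0.11.

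The other 6 genes have no common role. Nt5c (a nucleotidase of the cytosol) was above TPM 1 in 10 of 10 Runx1-low cells at a median of 154 TPM and in 19 of 27 Runx1-high cells at a median of 41 TPM. Nmb (neuromedin B, a secreted peptide) was above TPM 1 in 9 and 17 cells, at medians of 163 TPM in the Runx1-low and 17.6 TPM in the Runx1-high cells. Plac1, a gene known from placenta, was uneven among the Runx1-low cells, with 3180 and 1302 TPM in 2 cells and 0 in 4. Cdc42ep2 (an effector of the GTPase Cdc42; adjusted difference -3.10), Akr1b8 (an aldo-keto reductase with close relatives in the genome; -2.93) and Add3 (gamma-adducin of the membrane skeleton; -2.93) completed the set. Of the 12 lower genes, Runx1-low cells had between 5 and 12 above TPM 1 (median 8.5), and Runx1-high cells between 2 and 9 (median 5). The counts overlapped, and the gap between the groups follows from the choice of these genes.

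**Figure D4:**
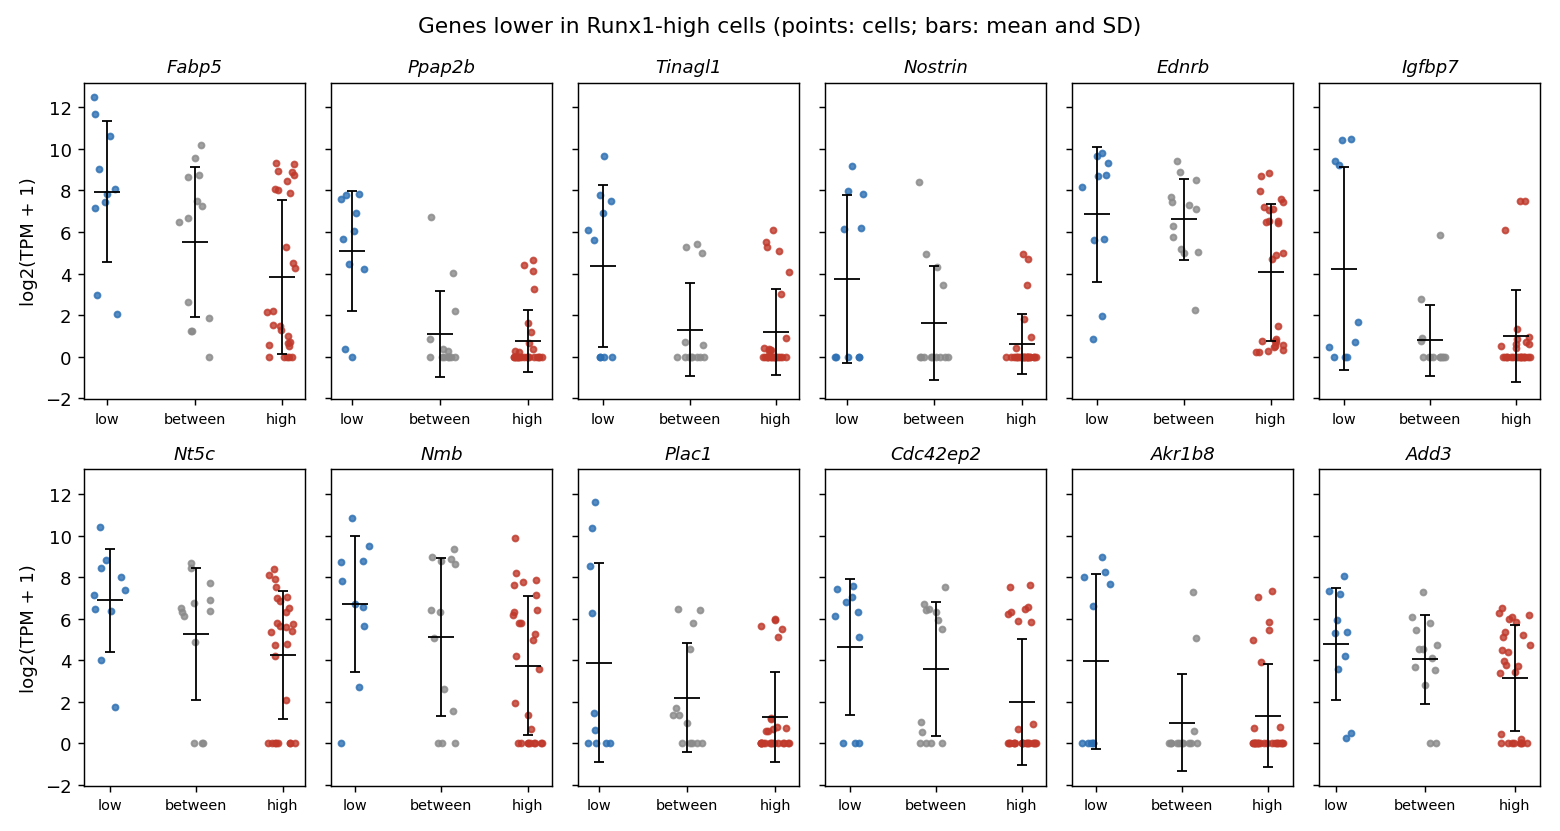
log2(TPM + 1) of the 12 genes with the largest negative adjusted difference, for Runx1-low (n = 10), between (n = 13) and Runx1-high (n = 27) cells; points are cells and bars the mean and SD. For Ppap2b, Tinagl1, Nostrin, Igfbp7, Plac1, Cdc42ep2 and Akr1b8 most cells of the Runx1-high group lie at or near 0. In these panels the Runx1-low cells run from 0 TPM to highest values between 191 TPM (Cdc42ep2) and 3180 TPM (Plac1).

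The 10 Runx1-low cells differed among themselves. Of the 12 higher genes, between 3 and 9 were above TPM 1 in a Runx1-low cell (median 5), against 8 to 12 in a Runx1-high cell (median 10) and 7 to 12 in a cell between the limits (median 9). The genes were picked for being higher in the Runx1-high cells, so the gap between the outer groups follows from that choice. Over all rows, the median number of genes above TPM 1 was 6390 in the Runx1-high and 5433.5 in the Runx1-low cells. Cell 1-4, with a Runx1 level of 1.95 TPM, had 9 of the 12 higher genes. It held 129 TPM of Alox5, 27.4 TPM of Fcgr3, 270.0 TPM of Ltc4s, 98.2 TPM of Neurl3 and 325 TPM of Timm10. It also had 1486 TPM of Lilrb4 and 2066 TPM of Fcer1g, the signalling chain of Fc receptors, and 5 of the 12 lower genes, the fewest of the Runx1-low cells. Cell 4-13, which had the lowest Runx1 level at 0.163 TPM, had 3 of the higher genes and 10 of the lower genes, with 5761 TPM of Fabp5 and 3180 TPM of Plac1. Cell 3-11 had 3 higher and all 12 lower genes, with 421 TPM of Dll4 and 775 TPM of Hey1, which are a ligand and a target of Notch signalling. Cell 3-14, with the highest Runx1 level of the group at 6.64 TPM, had 6 higher and 7 lower genes.

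In the cells between the limits, the mean log2(TPM + 1) lay strictly between those of the other groups for 10 of the 12 higher and 10 of the 12 lower genes, against 37.2% of all genes fitted. These genes were picked for a large difference between the outer groups, the means are not adjusted for the number of genes, and over all genes fitted the between mean exceeded the Runx1-low mean by a median of 0.42, so nothing particular to them is read from this. Within the 27 Runx1-high cells there was little further order by Runx1. Spearman's rho with Runx1 over these cells had a median of 0.099 for the higher genes (-0.139 to 0.321) and of -0.015 for the lower genes (-0.304 to 0.335). Over all genes fitted, 5% of genes lay below -0.282 and 5% above 0.36, and of the named genes Akr1b8 (-0.30) and Nmb (-0.29) lay just below the lower of these values.

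Of 13 listed partners and related factors of Runx1, 10 were fitted, with a median adjusted difference of 0.31, and 2 of them were higher by 1 or more and 0 lower (12.9% and 11.2% of all genes fitted). Cbfb was above TPM 1 in 24 of 27 and 6 of 10 cells at medians of 43.5 and 42.7 TPM, with an adjusted difference of 0.36 that ran from -0.17 (without cell 2-16) to 0.74 (without cell 4-13) when 1 Runx1-low cell was left out. Tle1, a Groucho corepressor, was above TPM 1 in 23 of 27 Runx1-high cells at a median of 26.5 TPM and in 3 of 10 Runx1-low cells, with an adjusted difference of 3.02. The deacetylase gene Hdac3 had an adjusted difference of 1.25, with the opposite sign under 1 title number. The related genes Runx2 and Runx3 were above TPM 1 in 1 and 4 Runx1-high cells, respectively, and in 0 Runx1-low cells.

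Of 24 listed names of genes known as regulated by Runx1 in blood cells, 14 passed the filter and were fitted. Their median adjusted difference was 1.32 against 0.07 over all genes fitted, and 8 were higher and 0 lower by 1 or more (12.9% and 11.2% of all genes fitted). A gene measured mainly in the 27 Runx1-high cells passes the filter more easily than one measured mainly in the 10 Runx1-low cells, so these counts, and those of every list below, describe the members that passed and not the list. With no filter on low values the median was 0.32. Gpr56 (now Adgrg1), an adhesion receptor of hemogenic endothelium and stem cells, was above TPM 1 in 26 of 27 Runx1-high cells at a median of 78.6 TPM, and in 3 of 10 Runx1-low cells at a median of 0.278 TPM, with an adjusted difference of 2.87 and the same sign under all 4 title numbers. Sfpi1 was above TPM 1 in 17 of 27 Runx1-high cells, up to 745 TPM, and in 2 of 10 Runx1-low cells, with an adjusted difference of 2.9 and the opposite sign under 1 title number. One of these 2 was cell 4-6 with 3843 TPM, more than in any Runx1-high cell, and the other had 1.76 TPM. Nfe2, a regulator of megakaryocyte maturation, was above TPM 1 in 14 and 1 cells, with an adjusted difference of 2.09. Nov (now Ccn3, a matrix-associated protein; 2.05), the cytokine receptor chain Csf2rb (1.99), the adhesion receptor Cd44 (1.62), Kit (1.36) and the platelet chemokine Pf4 (1.28) followed, and of these Csf2rb and Pf4 also had the opposite sign under at least 1 title number.

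Other members differed less. Gfi1, the repressor with which Runx1 ends the endothelial program, was above TPM 1 in 8 of 27 Runx1-high cells and in 1 of 10 Runx1-low cells, with an adjusted difference of 0.32. In the cells between the limits Gfi1 was most frequent, above TPM 1 in 8 of 13. Its median there was 32.1 TPM, against 0 TPM in both other groups. Gfi1b, its relative, was above TPM 1 in 1 and 0 cells. Itga2b had an adjusted difference of 0.30. Leaving out 1 Runx1-low cell moved Gfi1 to as much as 0.82 and Itga2b to as much as 0.73, both without cell 3-14, and took Gfi1 to 0 without cell 1-8 and Itga2b to -0.07 without cell 4-14. The progenitor factor Myb and the leukocyte sialoprotein gene Spn were listed at 0 in every cell, and Csf1r was above TPM 1 in 2 Runx1-high and 1 Runx1-low cell.

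Of 33 endothelial genes fitted, 2 were higher and 5 lower by 1 or more (12.9% and 11.2% of all genes fitted), and their median adjusted difference was -0.26. This median had the same sign in 22 of 25 alternative settings. It was 0.03 without the number of genes in the fit, 0.04 without the cells of title number 2 and 0.03 without cell 2-2 alone. Cdh5 (-0.10), the VEGF receptor Kdr (-0.08), the angiopoietin receptor Tek (0.20) and the ETS factor Fli1 (-0.31) were among the members with small adjusted differences, and that of Cdh5 was 0.25 without cell 2-2. Erg, another ETS factor of endothelium and stem cells, was higher by 2 or more, and Sox7, a factor of endothelial differentiation, by 1.07. Erg was above TPM 1 in 25 of 27 Runx1-high cells at a median of 34.6 TPM and in 4 of 10 Runx1-low cells at a median of 0.157 TPM, with an adjusted difference of 2.22 and the same sign under all 4 title numbers. Lower by 2 or more were Lyve1 and Stab2, receptors for hyaluronan known from sinusoidal and lymphatic endothelium. Lyve1 had a median of 22.2 TPM in the Runx1-high and of 166 TPM in the Runx1-low cells (adjusted difference -2.32), but the sign held under 2 of the 4 title numbers. Stab2 was above TPM 1 in 8 of 27 cells, up to 23 TPM, and in 5 of 10 cells, up to 321 TPM (-2.05), and its sign held under 3 of the 4. Eltd1 (now Adgrl4; -1.48), Sox17 (-1.40) and Flt4 (-1.02) were the other members lower by 1 or more. Sox7, Sox17 and Flt4 had the opposite sign under 1 title number.

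Artery and Notch genes had a median adjusted difference of -0.69 over 12 genes, 2 of them higher and 5 lower by 1 or more (12.9% and 11.2% of all genes fitted). Without the number of genes in the fit the median was -0.11, and the medians of plain differences under the 4 title numbers were 1.0, -1.58, -1.31 and 1.47, so the direction was not shared. Dll4, the Notch ligand of arterial endothelium, was above TPM 1 in 10 of 27 Runx1-high cells at a median of 0.208 TPM and in 6 of 10 Runx1-low cells at a median of 23.4 TPM, with an adjusted difference of -2.01. Hes1 (-1.47) and Nrp1 (-1.40) lay in the same direction. Jag2 (1.31) and Hey1 (1.51) lay in the other, although in the Runx1-low cells Hey1 was above TPM 1 in 1 cell only, at 775 TPM. Each of these 5 genes had the opposite sign under at least 1 title number. For 6 vein genes the median was -0.57, with 0 higher and 2 lower by 1 or more, read against the same shares of all genes.

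Among 18 blood transcription factors fitted, 6 were higher and 1 lower by 1 or more (12.9% and 11.2% of all genes fitted), at a median adjusted difference of 0.60. Besides Lmo2, the higher ones included Mycn, above TPM 1 in 25 of 27 and 5 of 10 cells (1.78), Ikzf2, above TPM 1 in 14 and 1 cells (1.45), Meis1, above TPM 1 in 16 and 2 cells (1.13), and Bcl11a, above TPM 1 in 10 and 0 cells (1.09), which passed the filter without any Runx1-low cell. The genes with which Lmo2 acts differed less or in the other direction. Gata2 had an adjusted difference of 0.40 and Lyl1 one of 0.05, and Tal1 was above TPM 1 in 12 of 27 Runx1-high and 7 of 10 Runx1-low cells, with an adjusted difference of -1.29 and the opposite sign under 1 title number. Gata1, the factor of red cells and megakaryocytes, was listed at 0 in every cell.

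Leukocyte genes had a median adjusted difference of 0.83 over 16 genes, 8 of them higher and 2 lower by 1 or more (12.9% and 11.2% of all genes fitted). The median was 0.31 with all 50 cells split at 50 TPM. Laptm5, a lysosomal membrane protein of blood cells, was above TPM 1 in 27 of 27 Runx1-high cells at a median of 196 TPM and in 8 of 10 Runx1-low cells at a median of 34.3 TPM (2.78). Coro1a, an actin regulator of leukocytes, was above TPM 1 in 11 and 2 cells (2.01), and the phosphatase gene Ptpn6 in 19 and 4 cells (1.4). Lsp1 (-2.48) and Hcls1 (-1.11) were lower, with the opposite sign under at least 1 title number. Of the higher members, Alox5ap (3.19), Was (1.64), Fcer1g (1.33), Arhgdib (1.08) and Lcp1 (1.06) also had the opposite sign under 1 title number. The signalling adapter Tyrobp was above TPM 1 in 15 and 4 cells, with an adjusted difference of -0.46, and its highest values were 1917 TPM among the Runx1-high and 1574 TPM among the Runx1-low cells. The summed level of the leukocyte rows overlapped between the groups, from 1692 to 9493 TPM in Runx1-high cells and from 936 to 5636 TPM in Runx1-low cells. Of 6 megakaryocyte genes fitted, 3 were higher by 1 or more (12.9% of all genes fitted), with a median of 0.79 and a median of plain differences of -0.68 under title number 1. Rab27b, a GTPase of platelet granules, was above TPM 1 in 16 of 27 Runx1-high and 0 of 10 Runx1-low cells (2.02). The 5 myeloid genes fitted had a median of -0.21, whose sign was kept in 16 of 24 settings, and among them Fcgr3 alone reached 2.

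Genes of the cell cycle depended on the number of genes per cell. The 18 genes of G2 phase and mitosis had a median adjusted difference of -1.19, with 1 gene higher and 9 lower by 1 or more (12.9% and 11.2% of all genes fitted), but a median of 0.13 without the number of genes in the fit. Their within-number medians of plain differences were -0.56, 1.31, -1.79 and 0.90. Birc5 (survivin), with the largest difference of the list (-2.53) and the opposite sign under 1 title number, was above TPM 1 in 10 of 27 Runx1-high and 5 of 10 Runx1-low cells, and its highest values were 957 and 1558 TPM. In both groups the genes of mitosis were high in some cells and near 0 in others, so that the summed level of the list ran from 83.5 to 14324 TPM in Runx1-high and from 120.0 to 7055 TPM in Runx1-low cells. The 17 S phase genes had a median of -0.34 with the number of genes in the fit, of 0.74 without it and of 0.11 without cell 3-14. A difference in cycling between the groups cannot be told apart here from the difference in the number of genes measured.

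Cytokine receptor and signalling genes had a median adjusted difference of 0.34 (19 genes; 4 higher and 1 lower by 1 or more, against 12.9% and 11.2% of all genes fitted), and TGF-beta and BMP genes one of -0.06 (14 genes; 0 and 4). Housekeeping genes had a median of 0.15, and none of 8 reached 1 in either direction. The 3 rows next to the Rosa26 locus, where the cassette lies, had a median of 0.23, and none reached 1. Of 25 settings the sign was kept in 24, 16, 24 and 23 for these 4 lists. Immediate early and stress genes had a median of 0.64 over 13 genes, 2 of which were higher by 1 or more: Jund (2.2) and Junb (1.36). The 8 transcription factors that the study took into its screen were too rarely measured to be fitted, and a Runx1-high cell had at most 2 and a Runx1-low cell at most 1 of them above TPM 1.

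**Figure D5:**
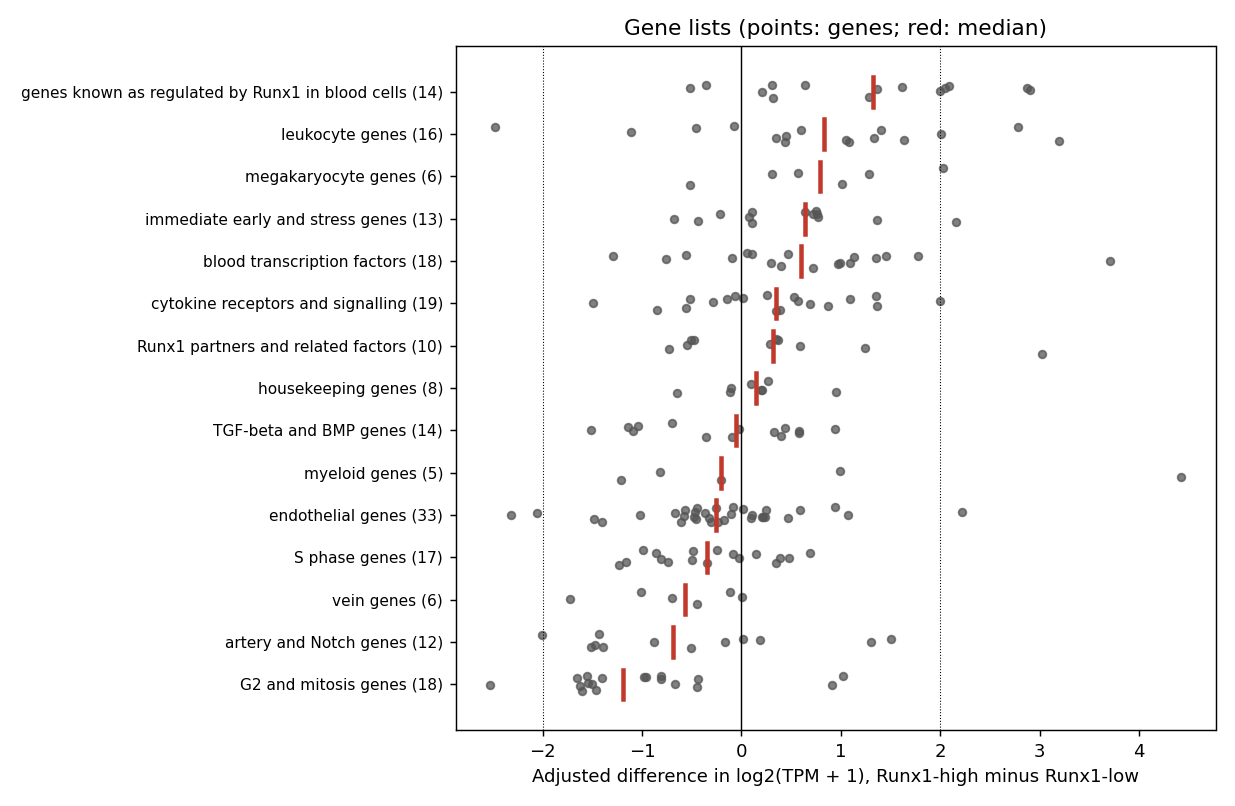
Adjusted difference in log2(TPM + 1), Runx1-high minus Runx1-low, of each fitted gene (grey points) in 15 gene lists, with the number of genes fitted in parentheses; red bars are medians, and dotted lines mark 2 in either direction. The medians plotted run from -1.19 for genes of G2 and mitosis to 1.32 for the fitted genes known as regulated by Runx1, which is 0.32 with no filter on low values.

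Promoters were searched for the core of the RUNX binding motif, TGTGGT on either strand, from 250 bases before to 50 bases after the gene start in RefSeq windows on GRCm38.p6. RefSeq starts can lie elsewhere than the ends of the gene positions given above, which are from GENCODE, and do so for the 4 genes printed here. It was found in 1 of the 8 higher genes with a window (12.5%) and in 2 of the 11 lower genes (18.2%). Among all genes fitted with a window the share was 14.4% (1061 of 7364), among those higher by 2 or more 15.0% (24 of 160) and among those lower by 2 or more 18.8% (21 of 112). The shares of the named genes rest on 1 and 2 genes, and a match is a description of letters only. The windows below are the named genes that hold the motif and, for comparison, Runx1 itself, read 5′ to 3′ in the sense of the gene with the motif in capitals. The site lay 156 bases before the RefSeq start in Ltc4s (chr11:50238656-50238715, minus strand), 105 bases before it in Nmb (chr7:80905135-80905194, minus strand) and 117 bases before it in Add3 (chr19:53142612-53142671, plus strand). Runx1 (chr16:92826027-92826050, minus strand) held 2 sites, the first 29 bases after the RefSeq start.
Ltc4s: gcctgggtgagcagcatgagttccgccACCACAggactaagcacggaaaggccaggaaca
Nmb: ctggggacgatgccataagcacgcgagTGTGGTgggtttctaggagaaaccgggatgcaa
Add3: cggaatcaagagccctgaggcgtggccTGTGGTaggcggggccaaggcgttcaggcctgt
Runx1: aacaACCACAgaACCACAagttgg

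Without cell 4-6 there were 200 genes higher and 160 lower by 2 or more, and without cell 1-8 there were 254 higher and 224 lower. All 24 named genes kept their sign when any 1 of the 10 Runx1-low cells was left out. They had been picked from these cells for large differences with a shared sign, so this outcome was largely set by the choice. Since 10 cells carry one side of every difference, and no depth is known for any cell, a value of 0 is reported here as listed at 0, and a gene measured in few Runx1-low cells is not shown to be absent from them.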

How the data were processed

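Single-cell libraries of 50 iHECs had been made with a whole-transcriptome amplification kit and a transposase-based library kit. The sequencer is given differently in the GEO entry and in the publication, and was not settled here. Per the submitters' processing notes, bcl2fastq, HISAT2 2.1.0, SAMtools 0.1.19 and StringTie 1.3.4 were used with the mouse build mm10. The deposited values are TPM per gene and cell as estimated by the authors, for 11879 gene rows, of which 515 were at 0 in all cells. The rule by which rows were selected was not stated. The rows summed to between 942975 and 970894 TPM per cell. No unique molecular identifiers were named, and TPM keeps no depth, so sequencing depth is unknown, cells were not thinned, and intervals cover counting error only.

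Cells were grouped by Runx1 TPM (above 100, at or below 10). For each of 9103 genes above TPM 1 in at least 10 cells, log2(TPM + 1) was fitted by least squares on the group and the number of genes above TPM 1 in the cell, with python 3.11.15, numpy 2.4.6, pandas 2.3.3 and scipy 1.17.1. Cells are not replicates, and no test between the groups was made. The fit was tested on simulated data. Named genes were the 12 with the largest adjusted difference per direction, with the same sign of the plain difference overall and under all 4 first title numbers, and key members of the lists. Groups, lists and rules were chosen with earlier results of these data known, and the eicosanoid and Fc receptor lists, the description of single Runx1-low cells and the names Lilrb4, Alox5ap and Ptgs1 after their values were seen. Shares have exact Clopper-Pearson 95% intervals. Gene positions are from GENCODE M21 on GRCm38, which mm10 names. One gene of the lists is not reported here. No cell was left out, no doublet caller was run and cells were not clustered.

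Alternatives were no covariate, a pseudocount of 0.1, other filters and Runx1 limits, cells of at least 5000 genes, TPM rescaled without 82 ribosomal protein rows, the first title number as a term, and each title number left out. Leaving out each Runx1-low cell, and cells of 4400 to 7600 genes only, were added after seeing the data.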

Additional observations from a re-analysis of the deposited data

Results flagged for a closer look

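For the 24 named genes, on the log2 scale, and for the number of genes per cell, on the linear scale, the highest and lowest of the 10 Runx1-low cells were set against the others. In 4 of these 25 measures, all of them genes, 1 cell lay farther from the rest than a gap of 0.466 of the whole range, which chance gives in about 1 in 20 groups of normally distributed values. That rate does not hold here, because the genes were picked for their level in these cells and several of the cells are at or near 0. For the number of genes, cell 4-6 with 2400 had a gap of 0.39 of the range on the linear scale and of 0.53 on the log2 scale, on which it too would be past that value. Alox5 stood at 129 TPM in cell 1-4, and the next Runx1-low cell had 7.16 TPM. In the same cell Fcgr3 stood at 27.4 TPM, and the next had 0.693 TPM. Ctse stood at 414 TPM in cell 2-12, and the next had 0.741 TPM. Lmo2 stood at 26.5 TPM in cell 1-8, and the next had 3.1 TPM. For all 4 genes the remaining Runx1-low cells lay far below the Runx1-high medians of 88.9, 95.8, 70.5 and 70.9 TPM.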

How the results depend on the processing

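The counts by 2 or more, 196 genes higher in Runx1-high cells and 145 genes lower in Runx1-high cells, moved by over 1.5 times under several settings. Without the number of genes in the fit they were 424 and 40. With a pseudocount of 0.1 they were 663 and 578, and with all 50 cells split at 50 TPM 60 and 44. The lower count was 89 with genes above TPM 1 in at least 25 cells and 224 with Runx1-low cells at or below 1 TPM. It was also 224 without cell 1-8, and leaving out each Runx1-low cell in turn gave 200 to 254 higher and 144 to 224 lower genes. Without the cells of title number 1 there were 326 higher and 275 lower genes, without number 2 there were 324 and 326, and without number 3 there were 238 lower. The cause of these shifts was not tested. The median of the genes known as regulated by Runx1 was 0.32 with no filter on low values and between 0.32 and 1.8 over 25 settings. The median of the leukocyte genes was 0.31 with the split at 50 TPM, and that of the housekeeping genes was -0.12 with Runx1-low cells at or below 1 TPM. The other 421 list medians under alternatives moved by less than the SD of the 4 title numbers. That SD rests on 2 or 3 Runx1-low cells per title number, so staying within it is a weak criterion. Some medians within it changed sign, such as those of S phase genes (-0.97 to 0.74) and sort markers (-0.31 to 0.42). The 24 named genes kept their sign in every setting in which they were fitted, which their choice by size and shared sign made likely. Of 840 single-gene values, 29 moved by more than the SD of the 4 title numbers. Add3 fell below 2 in size without the covariate (-1.62), and Lmo2 (1.45), Igfbp7 (-1.82), Nmb (-1.41), Akr1b8 (-1.53) and Add3 (-1.96) did with the split at 50 TPM. No paired analysis was possible because the labels put every cell in 1 group, with replicate numbers that are only names. With the first title number, under which both Runx1 groups occurred, as a further term, 201 genes were higher and 152 lower. The 10 Runx1-low cells, the unknown depth and amplified cDNA without molecular identifiers limit every difference given here.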
